A study of Mus musculus with 8 samples.

Results

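The collagen chain genes encode the polypeptides that assemble, 3 at a time, into collagen molecules. Every mouse gene whose symbol is Col followed by a type number, the letter a and a chain number was taken, which gave 44 genes of the 46078 identifiers in the count tables. The rule uses names and no measured value, and the family itself was proposed with earlier results of these data known. Of the 44, 36 passed the low count filter and could be tested, and 8 did not.

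The chains were measured by bulk RNA sequencing of stroke infarcts from 8 aged mice. All animals were wild type male C57BL/6J mice 18 months old, and all had DH stroke, that is, occlusion of the distal middle cerebral artery followed by a period of hypoxia. From 1 week after stroke, 4 of them received sterile PBS subcutaneously (vehicle, called Saline in the tables) and 4 received 4 g/kg of 2-hydroxypropyl-β-cyclodextrin (HPBCD, here HPβCD, called Cyclodextrin in the tables), a cyclic oligosaccharide that takes up cholesterol and other lipids. Injections were given 3 times per week for 6 weeks, and infarcts were collected at 7 weeks after stroke. Dissection was manual and guided by sight, so pieces may differ in the amount of neighboring brain they hold. No uninjured tissue was part of the comparison, so levels are those of treated against vehicle infarcts, not of infarct against normal brain.

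Collagens are the main structural proteins of connective tissue. Each chain carries stretches in which glycine opens every triplet of residues, the pattern that lets 3 chains wind into a triple helix. Fibrillar chains (types I, III, V, XI and relatives) form the ropes of scars and tendons. Basement membrane chains (type IV, with the proteoglycan collagens XV and XVIII) form or bind the sheets under blood vessels and epithelia. Fibril-associated chains (such as types IX, XII and XIV) sit on the surface of fibrils, and type VI chains form beaded filaments around cells. In the brain most fibrillar collagen is found in the meninges, around vessels and in the scar that fills an old infarct, where fibroblasts make it.

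The longest unbroken repeat is longer in every fibrillar chain than in any chain of the other classes. The stretches printed here are the first 72 coding bases of the longest uninterrupted repeat in chains on which the results turn, read from the GENCODE M21 transcripts of GRCm38 on the strand of the gene, with the glycine codon of each triplet in capitals.
Col1a1, coding bases 502 to 573: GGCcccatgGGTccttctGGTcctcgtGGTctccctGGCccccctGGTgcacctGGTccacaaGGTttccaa
Col1a2, coding bases 289 to 360: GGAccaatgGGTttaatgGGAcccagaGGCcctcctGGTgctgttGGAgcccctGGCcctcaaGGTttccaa
Col14a1, coding bases 4549 to 4620: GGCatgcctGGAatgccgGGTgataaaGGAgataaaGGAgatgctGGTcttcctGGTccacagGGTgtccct
Col18a1, coding bases 2857 to 2928: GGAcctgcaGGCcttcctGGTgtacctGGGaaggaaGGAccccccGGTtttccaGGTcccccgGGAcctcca
Col4a1, coding bases 127 to 198: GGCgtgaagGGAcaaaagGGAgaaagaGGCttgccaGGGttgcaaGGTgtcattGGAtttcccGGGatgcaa
Col6a5, coding bases 4324 to 4395: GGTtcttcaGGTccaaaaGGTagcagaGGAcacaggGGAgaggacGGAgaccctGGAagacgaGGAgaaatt

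In *Col1a1* this repeat ran on for 338 triplets without a break, and in *Col1a2* for 339. The 11 fibrillar chains had longest runs of 216 to 344 triplets. The 8 basement membrane chains had longest runs of 30 to 66 triplets. With shorter runs counted too, repeats held 26.6% to 78.9% of the coding bases of basement membrane chains. In fibrillar chains they held 53.5% to 77.2%. The 9 fibril-associated chains ranged from 32 to 113 triplets, and *Col14a1* and *Col12a1* had 32 each. The 6 type VI chains ranged from 37 to 87.

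Collagen RNA made up a larger part of every HPβCD library than of any vehicle library. Counts of the 44 chains amounted to 0.332%, 0.511%, 0.178% and 0.413% of the gene counts in vehicle animals 1 to 4. The corresponding shares were 0.776%, 0.910%, 0.738% and 0.679% in HPβCD animals 1 to 4. The group means were 0.358 ± 0.141% and 0.776 ± 0.0979% (SD, n = 4 per group), a difference of 1.21 on the log2 scale. The 95% Wilson interval of a library reached at most 0.0045 percentage points from its value, and this covers counting error only. The shares were not tested, because the family was proposed with results of these data known. In bulk tissue, more collagen RNA per cell, more collagen-making cells and less RNA from other cells in the dissected piece cannot be told apart.

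**Figure D1:**
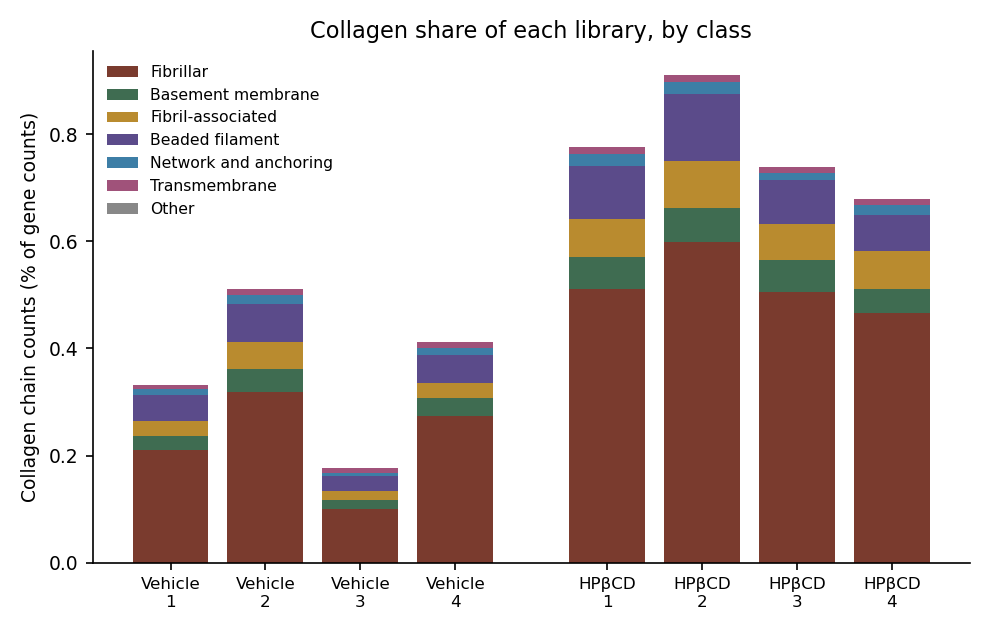
Share of gene counts (%) taken by the 44 collagen chains in each of the 8 libraries, with the classes stacked. The HPβCD bars reach 0.679% to 0.910%, all above the highest vehicle bar at 0.511%, and the fibrillar segment is the largest in each of the 8 bars.

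A few chains carried most of these counts. *Col1a2* held 29.7% of all collagen counts, *Col3a1* 21.3%, *Col1a1* 10.8% and *Col6a1* 6.87%. Adjusted for transcript length, the mean level of *Col1a2* was 172 CPM per kilobase in vehicle and 474 in HPβCD infarcts (CPM, counts scaled to a common library size). By the same length-adjusted measure *Col3a1* had 142 and 286, *Col6a1* 62.5 and 129, *Col1a1* 53.0 and 162, and *Col14a1* 16.9 and 55.6. *Col4a1*, the most abundant of the type IV chains, had 12.3 and 29.5 CPM per kilobase. These levels depend on the length used. Over the union of all annotated exons the mean of both groups was 139 for *Col1a2*, 121 for *Col3a1*, 97.1 for *Col1a1* and 89.4 for *Col6a1*, against 323, 214, 107 and 95.5 by transcript.

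The libraries held 16.6 M to 32.9 M gene counts, with vehicle 2 the deepest. Vehicle 3 and vehicle 1 stood apart by their neuronal RNA. The summed level of 8 neuron markers was 6132 CPM in vehicle 3 and 970 in vehicle 1, against 19.0 and 42.2 in the other vehicle libraries and 8.88 to 85.7 in HPβCD libraries. Vehicle 3 had the lowest value of its group in 26 of the 36 tested chains, and vehicle 2 the highest in 26. The calls and the results they touch are therefore also given without vehicle 1 and vehicle 3.

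To ask which chains differed with treatment, the 36 were read from a test over all 14736 genes that passed the filter (edgeR quasi-likelihood test, Benjamini-Hochberg adjusted p under 0.05). Of the 36 chains, 4 passed (11.1%), against 1.95% of all genes tested. All 4 rose in HPβCD infarcts, against 1.17% of all genes, and 0 fell, against 0.774%. In direction alone, 28 chains were higher (77.8%), against 45.9% of all genes. The 4 were *Col1a1* and *Col1a2*, which together make type I collagen, *Col14a1* and *Col18a1*. At an unadjusted p under 0.05, 18 chains were higher and 4 were lower, which is 22 of 36 (61.1%) against 27.8% of all genes (11.8% higher and 16% lower). In 16 chains all 4 HPβCD values lay above all 4 vehicle values (44.4%, against 8.77% of all genes), and in 2 they lay below (5.56%, against 8.03%). The median log2 difference was 0.76 over the chains and -0.05 over all genes.

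The adjusted p-values lay close to the threshold. The smallest among the chains was 0.0462, and 10 further chains had an adjusted p between 0.05 and 0.1. All 4 calls were lost when any one of vehicle 1, vehicle 4, HPβCD 1, HPβCD 2 or HPβCD 3 was left out. Each of these edgeR fits called 0 chains and at most 4 of all genes. At an unadjusted p under 0.05 they held 16 to 23 chains, and 2922 to 4216 of 14845 to 15059 genes. Without vehicle 2, 9 chains were called, against 556 of 14962 genes. Without vehicle 3, 8 chains were called (7 higher, 1 lower), against 629 of 14906 genes. DESeq2, the tool of the study, called 15 chains (41.7%) against 17.8% of all genes. Of these, 12 were higher (33.3%, against 6.92% of all genes) and 3 lower (8.33%, against 10.9%). By limma-voom 20 chains were called (55.6%), against 22.1% of all genes.

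**Figure D2:**
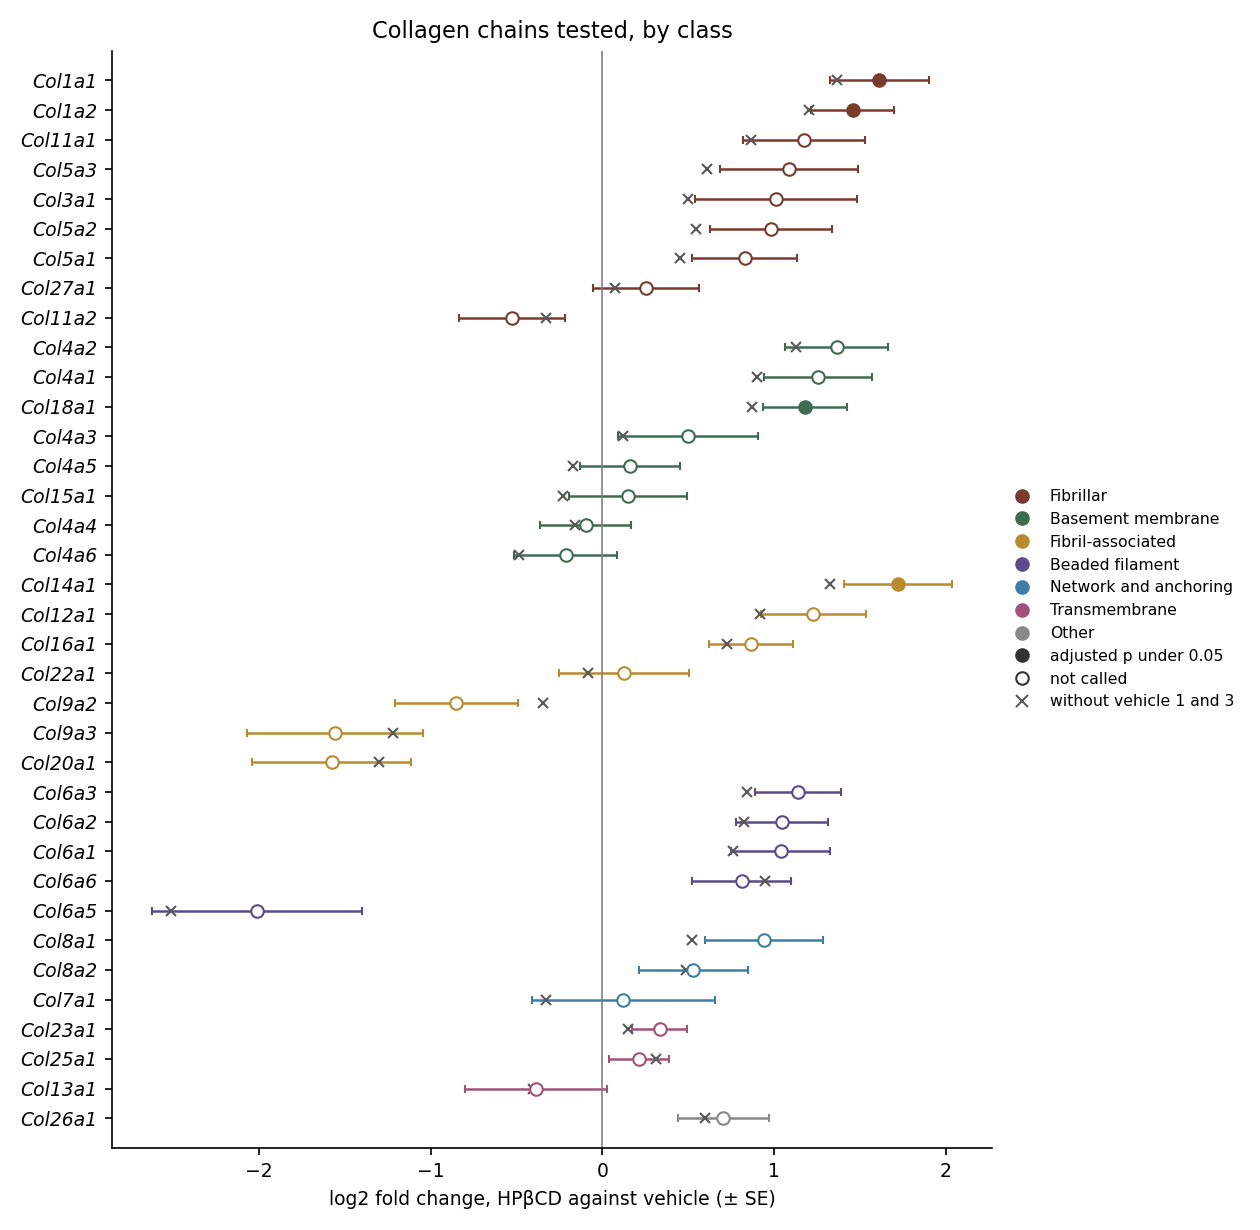
Log2 fold change of HPβCD against vehicle for the 36 tested chains, ordered by class, with the SE as bars. Filled circles are the 4 chains with an edgeR adjusted p under 0.05, open circles the others, and crosses the value without vehicle 1 and 3. Of the circles, 28 lie to the right of 0, and *Col6a5* lies farthest to the left at -2.01.

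Without vehicle 1 and 3 the same test called 5 of the 36 chains (13.9%), against 1.34% of all genes. *Col1a1*, *Col1a2*, *Col14a1* and *Col6a3* were called higher (11.1%, against 0.485% of all genes) and *Col6a5* lower (2.78%, against 0.856%), and *Col18a1* was no longer called (adjusted p = 0.0736, edgeR). The median difference over the chains was 0.49, and 24 of the 36 were higher (66.7%, against 51.2% of all genes). The part of the neuronal RNA in these differences was not tested.

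Fibrillar chains held the largest share of the collagen counts, and 8 of the 9 tested were higher in HPβCD infarcts, 2 of them called, with a median difference of 1.01. *Col1a1* (chr11:94936224-94953042, plus strand, GRCm38) encodes the α1 chain of type I collagen, of which each molecule holds a pair. Its level was 336, 400, 166 and 353 CPM in vehicle animals 1 to 4 and 1042, 1177, 915 and 709 CPM in HPβCD animals 1 to 4. The groups did not overlap, and the lowest HPβCD library was well above the highest vehicle library. The level rose 3.06-fold (log2 fold change 1.61, SE 0.29, edgeR adjusted p = 0.0483).

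*Col1a2* (chr6:4504814-4541544, plus strand) encodes the α2 chain of the same molecule. It had 827, 1218, 643 and 1001 CPM in vehicle animals and 2599, 3002, 2583 and 1946 CPM in HPβCD animals. The groups were again apart, with vehicle 3 lowest and HPβCD 2 highest, as for *Col1a1*. The level rose 2.75-fold (log2 fold change 1.46, SE 0.24, edgeR adjusted p = 0.0462). Without vehicle 1 and 3 both chains kept a call, with log2 fold changes of 1.36 and 1.21.

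*Col3a1*, whose product forms fibrils together with type I collagen in pliable tissue and young scars, had 677, 1195, 196 and 1086 CPM in vehicle animals. In HPβCD animals it had 1293, 1817, 1514 and 1744 CPM. The groups did not overlap, but vehicle 2 lay just below HPβCD 1 and vehicle 3 far below the rest of its group. The log2 difference was 1.01 (SE 0.47) and did not pass the test (edgeR adjusted p = 0.201). Without vehicle 1 and 3 it was 0.50.

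Type V chains start fibrils and limit their width. *Col5a2* had 83.0, 139, 35.5 and 119 CPM in vehicle animals and 186, 198, 177 and 185 CPM in HPβCD animals. The HPβCD values were close together and all above the vehicle values, with a log2 difference of 0.98 (edgeR adjusted p = 0.12). *Col5a1* had 20.2, 35.6, 12.5 and 26.5 CPM in vehicle animals and 45.7, 49.9, 42.4 and 30.7 CPM in HPβCD animals. Here HPβCD 4 fell inside the vehicle range, and the log2 difference was 0.83 (adjusted p = 0.124).

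The remaining fibrillar chains had lower levels per kilobase. *Col11a1*, a relative of the type V chains best known from cartilage, averaged 17.7 CPM with vehicle and 40.1 CPM with HPβCD, with the groups apart (log2 difference 1.17, edgeR adjusted p = 0.0862). Its partner in cartilage, *Col11a2*, averaged 5.88 and 4.07 CPM and was the only tested fibrillar chain with a negative difference (-0.53, adjusted p = 0.299). *Col5a3* and *Col27a1* had differences of 1.09 and 0.26. *Col2a1*, the main fibril of cartilage, and *Col24a1* had too few counts for the test.

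Basement membrane chains split. All 8 were tested, 6 were higher and 1 was called, with a median difference of 0.33. The 3 chains with the highest levels per kilobase, *Col18a1*, *Col4a1* and *Col4a2*, had differences of 1.18 to 1.36, and the other 5 lay between -0.21 and 0.50.

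*Col18a1* (chr10:77052178-77166548, minus strand) encodes a basement membrane collagen whose end fragment, endostatin, is known as an inhibitor of vessel growth. It had 81.1, 147, 78.0 and 118 CPM in vehicle animals and 251, 277, 257 and 177 CPM in HPβCD animals. The groups were apart, with HPβCD 4 the lowest of its group. The level rose 2.26-fold (log2 fold change 1.18, SE 0.24), with an edgeR adjusted p of 0.0499, at the edge of the threshold.

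*Col4a1* and *Col4a2* encode the chains of the type IV collagen found under nearly all blood vessels. They lie head to head on chromosome 8 and their annotated ends overlap by 22 bases. *Col4a1* had 74.5, 126, 40.7 and 85.6 CPM in vehicle and 198, 240, 193 and 150 CPM in HPβCD animals, without overlap (log2 difference 1.26, edgeR adjusted p = 0.0658). *Col4a2* had 28.7, 46.6, 22.0 and 27.8 CPM in vehicle and 89.6, 89.0, 98.4 and 45.2 CPM in HPβCD animals. Of these, HPβCD 4 alone fell below the highest vehicle library (log2 difference 1.36, adjusted p = 0.0550).

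The other type IV chains, which replace this pair in specialised membranes such as that of the kidney glomerulus, had lower levels per kilobase and smaller differences. *Col4a3* differed by 0.50, *Col4a5* by 0.16, *Col4a4* by -0.10 and *Col4a6* by -0.21 on the log2 scale, with edgeR adjusted p-values of 0.466 to 0.847. *Col15a1*, the closest relative of *Col18a1*, averaged 25.9 ± 11.2 CPM with vehicle and 28.8 ± 8.4 CPM with HPβCD (SD, n = 4 per group). Its difference of 0.15 changed sign without vehicle 3, and so did that of *Col4a5*.

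Fibril-associated chains moved in both directions. Of 7 tested, 4 were higher and 3 lower, with a median of 0.13, and 1 was called. *Col14a1* (chr15:55307750-55520803, plus strand) encodes a chain that coats type I fibrils and bridges them to other matrix proteins. It had 89.8, 172, 56.5 and 118 CPM in vehicle animals and 325, 435, 366 and 312 CPM in HPβCD animals. The groups were far apart, and at 3.30-fold it had the largest positive fold change of the 36 chains (log2 fold change 1.72, SE 0.32, edgeR adjusted p = 0.0483).

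*Col12a1*, a close relative that also binds fibrils, had 131, 254, 92.5 and 121 CPM in vehicle animals and 338, 427, 283 and 357 CPM in HPβCD animals. The groups were apart, with vehicle 2 nearest to the HPβCD range (log2 difference 1.23, edgeR adjusted p = 0.0658). *Col16a1*, another chain of the class, averaged 28.0 and 51.1 CPM with the groups apart (log2 difference 0.87, adjusted p = 0.0801).

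The 2 chains whose HPβCD values all lay below the vehicle values were of this class too, and both were low. They are described because their values set them apart. *Col9a2*, a chain of the cartilage collagen IX, had 2.15, 1.81, 4.30 and 1.72 CPM in vehicle animals and 1.55, 1.72, 1.18 and 1.05 CPM in HPβCD animals. Vehicle 4 and HPβCD 2 nearly met, and the difference shrank from -0.85 to -0.35 without vehicle 1 and 3. *Col20a1* had 4.53, 1.64, 1.33 and 2.58 CPM in vehicle animals and 0.460, 0.919, 0.751 and 1.22 CPM in HPβCD animals (log2 difference -1.57, edgeR adjusted p = 0.0834). *Col9a3* had a difference of -1.56 with overlapping groups, and *Col22a1* one of 0.13.

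**Figure D3:**
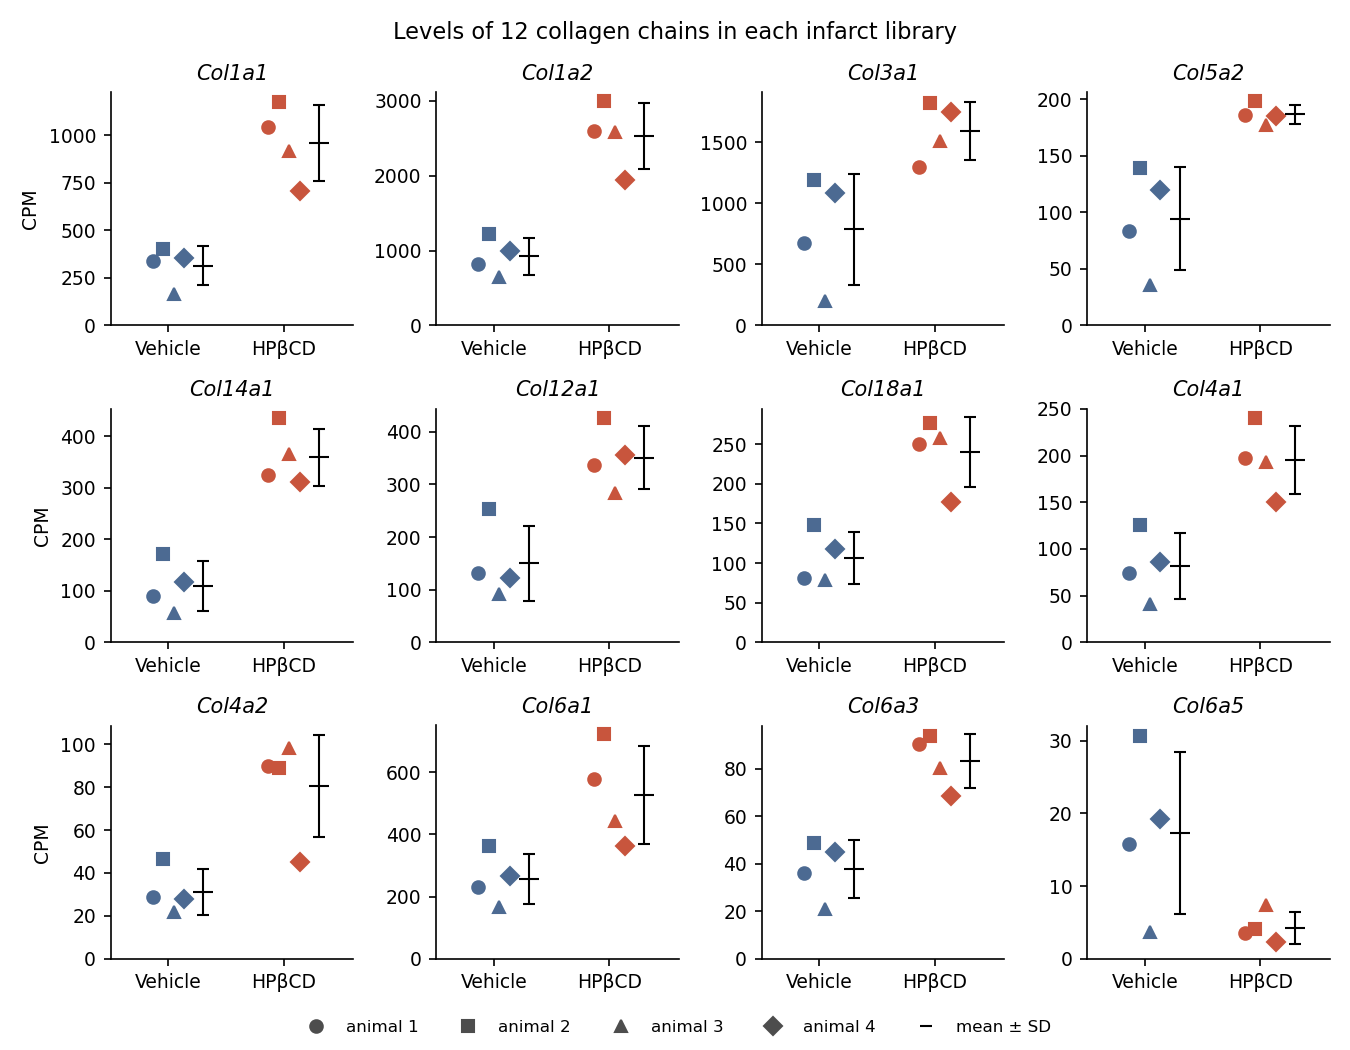
CPM of 12 collagen chains in each library, vehicle in blue and HPβCD in red, with a symbol for each animal number and the mean ± SD of 4 animals beside the points. In 10 of the panels all HPβCD points lie above all vehicle points, *Col4a2* overlaps by 1 HPβCD point, and *Col6a5* is turned the other way, with vehicle 3 among the HPβCD points.

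Type VI collagen forms the beaded filaments that tie cells to the surrounding matrix. Its 3 classical chains assemble together, and all of them were higher. *Col6a1* had 231, 362, 167 and 266 CPM in vehicle animals and 579, 722, 444 and 363 CPM in HPβCD animals. *Col6a2* had 164, 235, 115 and 164 CPM in vehicle animals and 351, 488, 322 and 241 CPM in HPβCD animals. In both, HPβCD 4 lay only just above vehicle 2. The log2 differences were 1.04 and 1.05 (edgeR adjusted p = 0.0772 and 0.0688). *Col6a3*, the longest of them, averaged 37.8 ± 12.3 and 83.3 ± 11.4 CPM (SD, n = 4 per group), apart and with a difference of 1.14 (adjusted p = 0.0556), and it was called without vehicle 1 and 3 (adjusted p = 0.0443). *Col6a6*, a later relative of *Col6a3*, was low at 0.970 and 1.70 CPM, with a difference of 0.81.

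*Col6a5* went the other way and had the largest negative difference of the 36 chains. It was singled out after its values were seen. It encodes a chain that can take the place of *Col6a3* in the filament. *Col6a5* had 15.8, 30.7, 3.69 and 19.2 CPM in vehicle animals and 3.50, 4.04, 7.41 and 2.28 CPM in HPβCD animals. Vehicle 3 lay among the HPβCD values and the other 3 vehicle libraries were all above them. The log2 difference was -2.01 (SE 0.61) and did not pass the test over all 8 libraries (edgeR adjusted p = 0.0910). It passed without vehicle 3 (-2.34, edgeR adjusted p = 0.0313) and without vehicle 1 and 3 (-2.51, edgeR adjusted p = 0.0356). Vehicle 3 is the library that lay among the HPβCD values, so leaving it out widens the difference by construction. Of the fits that left out 1 animal, only that without vehicle 3 called *Col6a5*. The others gave edgeR adjusted p-values up to 0.232. As a share of collagen counts, *Col6a5* took 0.194% to 0.635% in vehicle and 0.0334% to 0.0962% in HPβCD libraries, without overlap. The collagen total itself was 1898 to 4828 CPM in vehicle, lowest in vehicle 3, and 6806 to 9580 CPM in HPβCD libraries. A share of this total falls in HPβCD libraries even at an equal *Col6a5* level, so the separation is no further evidence.

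Among the network chains, *Col8a1* and *Col8a2* make the hexagonal lattices found under endothelium. *Col8a1* had 62.8, 94.4, 27.7 and 95 CPM in vehicle animals and 145, 139, 114 and 140 CPM in HPβCD animals, without overlap (log2 difference 0.94, edgeR adjusted p = 0.121). *Col8a2* had 41.1, 48.8, 35.8 and 34.3 CPM in vehicle animals and 73.3, 86.5, 30.9 and 40.2 CPM in HPβCD animals. Its HPβCD libraries split, with animals 1 and 2 above the vehicle range and animals 3 and 4 within or below it (log2 difference 0.53, adjusted p = 0.312). *Col7a1*, the anchoring fibril of skin, was near 1 CPM in both groups with a difference of 0.12.

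Among the transmembrane chains, *Col23a1* had 55.0, 80.4, 63.8 and 79.5 CPM in vehicle animals and 93.6, 99.0, 75.4 and 83.4 CPM in HPβCD animals (log2 difference 0.33, edgeR adjusted p = 0.216). *Col25a1*, which neurons make and which is found in amyloid plaques, had 22.9, 26.4, 32.4 and 23.0 CPM in vehicle animals and 28.3, 37.7, 29.1 and 26.5 CPM in HPβCD animals (0.22, adjusted p = 0.463). The groups overlapped in both. *Col13a1* differed by -0.39. *Col26a1*, which belongs to none of these classes, had 1.75, 3.44, 3.33 and 2.58 CPM in vehicle animals and 5.23, 5.09, 3.70 and 4.16 CPM in HPβCD animals, apart with a difference of 0.71 (adjusted p = 0.127).

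The 8 chains left untested were *Col2a1*, *Col24a1*, *Col9a1*, *Col19a1*, *Col6a4*, *Col10a1*, *Col17a1* and *Col28a1*. None of them had more than 89 counts in a library. *Col19a1* had those 89 counts in vehicle 3 and 13 in vehicle 1, the 2 libraries with the most neuronal RNA, 1 and 0 in the other vehicle libraries and 0 in all 4 HPβCD libraries. A count of 0 allows up to 3 counts in a library. *Col10a1*, the chain of growth plate cartilage, had 58 counts in HPβCD 1 and 29 in vehicle 2, and at most 2 in the other 6 libraries.

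Of 23 tested chains with a mean of at least 10 CPM (not per length), 21 were higher in HPβCD infarcts, and in 14 of these the groups were apart. Over all genes at that level, 51.3% were higher and 11.4% were higher without overlap. Of the 13 tested chains under 10 CPM, 7 were higher and 6 lower, and 36.0% of all genes at that level were higher.

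The makeup of the collagen counts was read as the share of each class. Such shares add up to a fixed total, so their differences cannot be set beside that of the amount. Fibrillar chains took 62.1 ± 4.31% of collagen counts in vehicle and 67.2 ± 1.51% in HPβCD infarcts (SD, n = 4 per group), with overlap. Types I and III together took 52.9% to 61.9% in vehicle and 62.3% to 65.1% in HPβCD libraries, without overlap. Basement membrane chains took 8.37 ± 0.686% and 7.32 ± 0.674%, type VI chains 14.3 ± 1.52% and 11.9 ± 1.70%, and fibril-associated chains 8.65 ± 1.25% and 9.59 ± 0.705%, each with overlap. Network and anchoring chains took less of the total in every HPβCD library (2.44% on average, against 3.26%), and so did transmembrane chains (1.5%, against 3.16%). In CPM both classes were nevertheless higher on average, at 194 against 111 CPM for network and anchoring chains and 120 against 97.9 CPM for transmembrane chains.

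Ratios between chains within a library do not depend on scaling. They were compared for 11 pairs by an exact two-sided permutation test over the 70 ways of dividing 8 animals into 4 and 4, which cannot give a p below 0.0286. *Col6a1* and *Col6a2* kept the steadiest ratio, 1.41 to 1.62 in vehicle and 1.38 to 1.65 in HPβCD libraries (log2 difference -0.0011, p = 0.971 in the exact test). The ratio of *Col4a1* to *Col4a2* was 1.85 to 3.08 in vehicle and 1.96 to 3.32 in HPβCD libraries (log2 difference -0.01, p = 0.971 in the exact test). *Col1a1* stood at 0.259 to 0.407 of *Col1a2* in vehicle and 0.354 to 0.401 in HPβCD libraries (log2 difference 0.18, p = 0.286 in the exact test). In these 3 pairs the group means differed by less than the SD of the vehicle animals, which does not show that the ratios were equal. For *Col1a1* and *Col1a2* the difference was larger than the SD of the HPβCD animals (0.08, against 0.27 in vehicle, log2 scale).

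After adjustment over the 11 pairs no ratio passed the test. The ratio of *Col4a1* to *Col1a1* was lower in each of the 4 HPβCD libraries, at 0.190 to 0.212, than in any vehicle library, at 0.222 to 0.314. Its log2 difference was -0.31, with the smallest p the exact test allows (0.0286, adjusted p = 0.314). *Col11a1* stood at 1.61 to 6.39 times *Col11a2* in vehicle and 6.15 to 12.8 times in HPβCD libraries (log2 difference 1.73, p = 0.0571 in the exact test, adjusted p = 0.314). *Col3a1* stood at 1.18 to 3.07 times *Col1a1* in vehicle and 1.24 to 2.46 times in HPβCD libraries (log2 difference -0.37, p = 0.4 in the exact test).

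**Figure D4:**
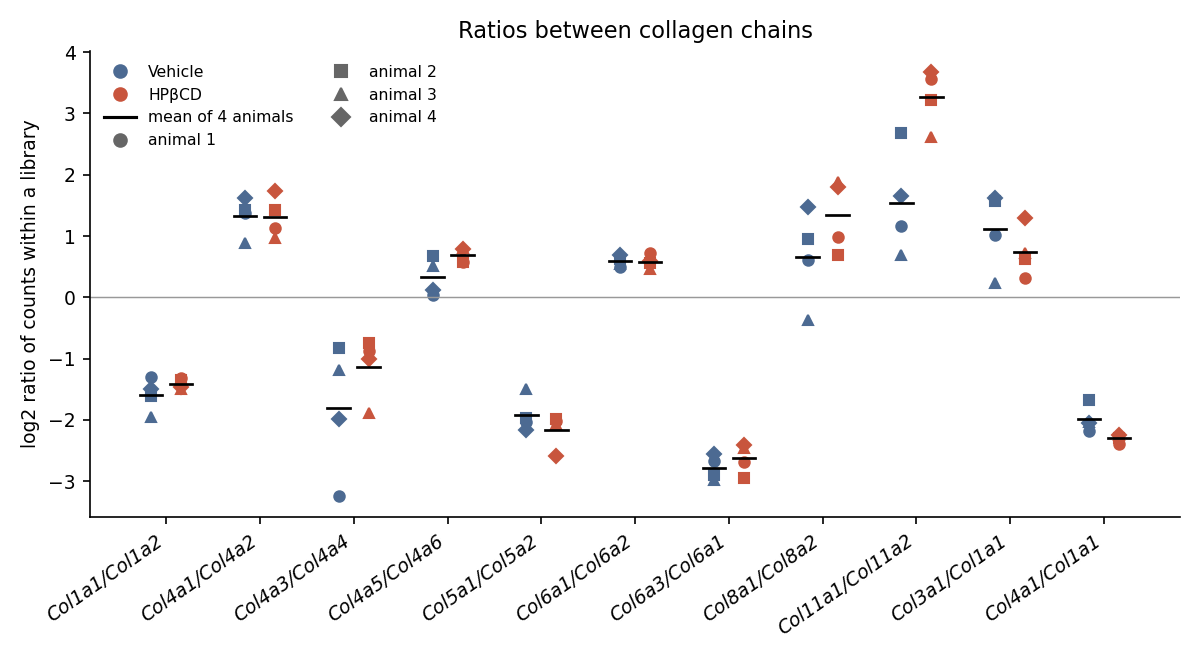
Log2 ratio of counts between 2 chains within each library for the 11 tested pairs, vehicle in blue and HPβCD in red, with a symbol for each animal number and bars at the group means. The *Col4a1*/*Col1a1* points are the only ones in which the groups do not overlap, and *Col11a1*/*Col11a2* has the largest difference between means.

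Among genes that modify, fold, trim or cross-link chains, 4 of 28 tested rose and 0 fell by edgeR (22 at an unadjusted p under 0.05, 3 of them lower, and 16 by DESeq2), with 23 higher and a median difference of 0.70. Over all genes the shares were 1.17% higher by edgeR, 27.8% at an unadjusted p under 0.05 and 17.8% by DESeq2. The 4 were *Plod1*, a lysyl hydroxylase (1.11), *P3h3*, of the prolyl 3-hydroxylase family (0.99), *Pcolce*, an enhancer of procollagen trimming (1.25), and *Loxl1*, a cross-linking oxidase (1.32). Without vehicle 1 and 3, *P3h3* lost its call (edgeR adjusted p = 0.0856). The 3 most abundant genes of this list did not pass. They were *P4hb*, a subunit of prolyl 4-hydroxylase (0.73), *Ppib*, a prolyl isomerase (0.42), and *Serpinh1*, the collagen chaperone HSP47 (0.97, edgeR adjusted p = 0.0506).

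Among collagen receptors, 2 of 10 rose and 0 fell by edgeR (3 at an unadjusted p under 0.05, 0 of them lower, and 3 by DESeq2). Beside the lists of this paragraph, the shares over all genes were 1.17% higher by edgeR, 27.8% at an unadjusted p under 0.05 and 17.8% by DESeq2. At the unadjusted p the receptor and degradation lists lay near the share of all genes. *Itga11*, the integrin subunit through which fibroblasts grip type I collagen, averaged 11.8 ± 1.92 CPM with vehicle and 39.4 ± 12 CPM with HPβCD (SD, n = 4 per group; log2 fold change 1.74, edgeR adjusted p = 0.0389). *Mrc2*, which takes up collagen for breakdown in the lysosome, rose by 1.17 on the log2 scale and was not called without vehicle 1 and 3 (adjusted p = 0.0857, edgeR). *Itgb1* and *Ddr2* had differences of 0.55 and 0.97 and did not pass. Of 6 genes for collagen degradation, 0 were called by edgeR (2 at an unadjusted p under 0.05 and 2 by DESeq2) and 4 were higher (*Mmp2* 1.08, *Mmp14* 0.59 and *Ctsk* 0.56 were the most abundant). Of 6 small leucine-rich proteoglycans, which bind fibrils, *Bgn* rose by 1.40 (edgeR adjusted p = 0.0527 without vehicle 1 and 3), and *Dcn* and *Lum* differed by 0.80 and 0.41 without passing.

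Markers of cell types were read from the same test. Of 10 fibroblast markers, 9 were tested, 8 were higher and 1 was called by edgeR (7 higher and 0 called without vehicle 1 and 3). At an unadjusted p under 0.05 there were 7, 0 of them lower, and DESeq2 called 6. Over all genes the shares were 1.95% by edgeR, 27.8% at an unadjusted p under 0.05 and 17.8% by DESeq2. The summed level of the fibroblast markers was 2238 to 4764 CPM in vehicle and 6067 to 6727 CPM in HPβCD libraries, without overlap. *Dcn* and *Lum* belong to that list and to the proteoglycans. *Dcn* alone averaged 1667 of a mean sum of 3495 CPM in vehicle and 2896 of 6378 CPM in HPβCD libraries. Its own groups overlapped. The summed collagen level divided by the summed fibroblast level was 0.986 ± 0.138 in vehicle and 1.26 ± 0.229 in HPβCD libraries (SD, n = 4 per group), and the ranges overlapped. Endothelial markers summed to 593 to 677 CPM in vehicle and 582 to 1058 CPM in HPβCD libraries, with 0 of 8 called by edgeR (3 at an unadjusted p under 0.05, 2 by DESeq2) and 7 of 8 higher. Mural cell markers summed to 327 to 509 and 425 to 665 CPM, with 0 of 8 called by edgeR (2 at an unadjusted p under 0.05, 1 by DESeq2) and 8 of 8 higher.

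**Figure D5:**
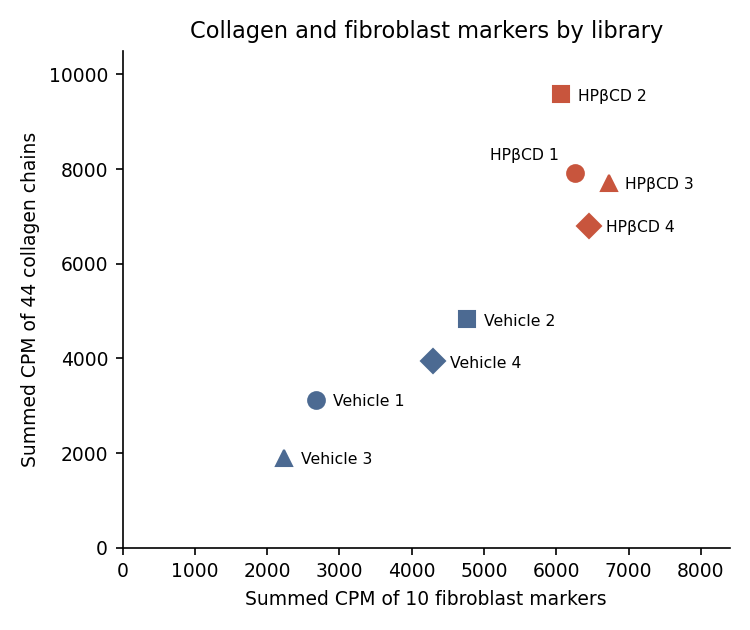
Summed CPM of the 44 collagen chains (vertical) against the summed CPM of 10 fibroblast markers (horizontal), one point per library, vehicle in blue and HPβCD in red. The HPβCD points lie above and to the right of all vehicle points, and vehicle 3 is lowest on both axes at 1898 and 2238 CPM.

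Astrocyte markers summed to 2124 to 8976 CPM in vehicle and 607 to 2436 CPM in HPβCD libraries, with 6 of 6 lower and an overlap of the ranges. Oligodendrocyte markers summed to 1518 to 4876 and 158 to 1930 CPM, again overlapping and with 6 of 6 lower. Of the 7 tested neuron markers 7 were lower, which rested on vehicle 1 and 3, since without these libraries 4 were higher and 3 lower. None of these brain cell markers was called by edgeR. At an unadjusted p under 0.05 the astrocyte, oligodendrocyte and neuron lists had 4, 0 and 7 genes, and by DESeq2 4, 1 and 6 were called. Over all genes these shares were 27.8% and 17.8%. Macrophage markers summed to 5407 to 9675 CPM in vehicle and 11994 to 19596 CPM in HPβCD libraries. Of 7, 6 were higher and 1, *Gpnmb*, was called by edgeR (3 at an unadjusted p under 0.05, 3 by DESeq2). Leaving out vehicle 1 and 3, *Gpnmb* lost its call (edgeR adjusted p = 0.0647). Without *Gpnmb* the sums were 2308 to 4200 and 3046 to 4983 CPM and overlapped, and *Csf1r*, *Spp1* and *Ptprc* had log2 differences of 0.13, 0.09 and -0.36. The part of these cells in the collagen result was not tested. Markers of choroid plexus, skin, muscle, bone and cartilage, which could be cut along with the infarct, were low. Meninges had no marker list of their own, so their part in the dissected pieces was not tested. Choroid plexus markers summed to 15.7 to 22.5 CPM over the 8 libraries, skin and muscle markers to 3.28 to 14.4 CPM with *Krt5* at 0 in all, and bone and cartilage markers to 4.08 to 22.4 CPM in 7 libraries and 76.7 CPM in HPβCD 1.

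Several chain genes are neighbors in the genome. *Col4a4* and *Col4a3* lie head to head with 71 bases between them, and *Col4a6* and *Col4a5* with 1308 bases. *Col3a1* and *Col5a2* lie tail to tail on chromosome 1, 24614 bases apart. Log2 differences of these neighbors were -0.10 and 0.50, -0.21 and 0.16, and 1.01 and 0.98. *Col6a5* lies 27917 bases from *Col6a6* on chromosome 9 in the same direction, and these had differences of -2.01 and 0.81. Some chains share exon bases with another annotated gene. On the same strand this was 1.44% of *Col3a1* and 1.54% of *Col20a1*, and on the opposite strand 6.07% of *Col9a3*, 5.65% of *Col4a3*, 3.39% of *Col6a4*, 2.5% of *Col5a1* and under 1% of the others that overlap. The effect on their counts was not tested.

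Promoter sequences of RefSeq (GRCm38.p6) were found for 35 of the 44 chains. In the 250 bases before the start site, searched on both strands, the GC box GGGCGG was present in 57.9% of 38 chain promoters and 32.7% of all 32851, the CCAAT box in 34.2% and 33.9%, and the TATA box TATAAA in 13.2% and 12.4%. The promoters of *Col3a1* and *Col6a5* are shown, as chains that differed in opposite directions and have no annotated exon in this window, with the matches in capitals. They lie at chr1:45311288-45311537 (plus strand) and chr9:105960644-105960893 (minus strand).
Col3a1 promoter: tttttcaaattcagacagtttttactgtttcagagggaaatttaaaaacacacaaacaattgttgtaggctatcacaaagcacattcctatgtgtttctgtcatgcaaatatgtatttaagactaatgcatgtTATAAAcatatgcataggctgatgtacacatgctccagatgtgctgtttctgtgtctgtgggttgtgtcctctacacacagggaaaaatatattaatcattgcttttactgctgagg
Col6a5 promoter: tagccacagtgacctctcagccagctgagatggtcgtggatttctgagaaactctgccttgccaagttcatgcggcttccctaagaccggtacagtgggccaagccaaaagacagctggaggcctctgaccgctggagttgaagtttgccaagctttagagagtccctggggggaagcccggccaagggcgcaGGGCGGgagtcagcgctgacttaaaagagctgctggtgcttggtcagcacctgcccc
*Col3a1* held a TATA box and no GC box, and *Col6a5* a GC box and no TATA box. The TATA match of *Col3a1* began 117 bases before the start site. This pair does not stand for the family. The other tested chains with a TATA box, *Col11a2* and *Col13a1*, had negative differences (-0.53 and -0.39). GC boxes lay before higher and lower chains, such as *Col1a2* (1.46) and *Col9a2* (-0.85). These matches are descriptions of letters and say nothing of which factors bind.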

How the data were processed

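The authors extracted RNA from dissected infarcts, prepared strand-specific poly(A) libraries, and trimmed, aligned and counted the paired-end reads. Their processing notes name bcl2fastq 2.19, Trimmomatic 0.32, STAR 2.5.2b, HTSeq and the build GRCm38. The strand option, counting version and annotation release are not given in the sources used here. For each animal the authors deposited 1 table of raw counts, not normalized. Reads assigned to no gene (26.6% to 36.6% of a library) were left out of totals and tests. Groups and animal numbers came from the labels, which give no batch. The labels do not tie animal numbers across groups.

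Symbols matched 45143 of 46078 identifiers. Counts were tested with edgeR 4.0.16 in R 4.3.3 (robust quasi-likelihood F test, TMM factors, filterByExpr by group, no covariate, Benjamini-Hochberg adjustment). CPM are counts scaled by library total and TMM factor. An SE is the log2 fold change divided by the square root of its F value. Levels per kilobase used the exon length of the transcript with the longest coding sequence (GENCODE M21), which gives smaller lengths than the union of all exons. Ratios used counts with 0.5 added and exact permutation tests (scipy 1.17.1). Alternatives were DESeq2 1.42.0, limma-voom (limma 3.58.1), other scaling factors, no filter, no robust option, the animal number as a block, and leaving out animals. Values in every library are given for called chains, the 2 highest chains of each class per kilobase, *Col3a1*, and the pairs *Col1a1*/*Col1a2*, *Col4a1*/*Col4a2*, *Col5a1*/*Col5a2*, *Col6a1*/*Col6a2* and *Col8a1*/*Col8a2*, and from each pathway list the called genes and the 3 with the highest CPM are named. The members, gene lists and tests were chosen with earlier results of these data known.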

Additional observations from a re-analysis of the deposited data

Results flagged for a closer look

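Single libraries stood apart from the other 3 of their group in 6 of 110 sets of 4 values searched by Dixon's criterion, where chance alone gives about 1 in 20. The log2 CPM of *Col11a1* was 2.89 in vehicle 3, against 4.28 to 4.52 in the other vehicle libraries. The log2 CPM of *Col4a2* was 5.50 in HPβCD 4, against 6.48 to 6.62 in the other HPβCD libraries. Without HPβCD 4 *Col4a2* passed the test (log2 fold change 1.57, edgeR adjusted p = 0.0354). HPβCD 4 alone fell below the highest vehicle library, so leaving it out widens the difference by construction. Of the fits that left out 1 animal, 2 called *Col4a2*, and their edgeR adjusted p-values ran up to 0.181 in the others. The log2 ratio of *Col5a1* to *Col5a2* was -2.59 in HPβCD 4, against -2.06 to -1.99. Network and anchoring chains took 3.02% of the collagen counts in vehicle 2, against 3.31% to 3.36% in the other vehicle libraries. In vehicle 3, transmembrane chains took 5.15% of the collagen counts, against 2.24% to 2.67%, and *Col26a1* with *Col28a1* took 0.191%, against 0.0724% to 0.0833%.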

How the results depend on the processing

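The direction of 30 of the 36 chains was the same under all 17 alternatives, while the number of calls depended on the test and on single animals. Chains called numbered 4 of 36 by edgeR, 15 by DESeq2, 20 by limma-voom, 0 with library totals only (21 at an unadjusted p under 0.05), 0 with upper quartile factors (22), 1 without the robust option and 0 with the replicate block (20). They ranged from 0 to 9 when 1 animal was left out. Genes called in all numbered 287 by edgeR, 2619 by DESeq2, 3253 by limma-voom, 11 with library totals only, 57 with upper quartile factors, 98 without the robust option, 9 with the block and 0 to 629 when 1 animal was left out. Pathway genes called numbered 7, 23, 26, 0, 2, 4 and 0 in the same order, and 0 to 12 when 1 animal was left out. Chains lower without overlap numbered 2, and 1 with upper quartile factors. The animal numbers were not taken to pair the libraries, since deviations of same-numbered animals correlated between -0.257 and 0.329.

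Log2 differences near 0 changed sign. That of *Col15a1* was -0.155 by limma-voom and -0.23 without vehicle 1 and 3, and leaving out 1 animal it ran from -0.076 (vehicle 3) to 0.426, with -0.039 without HPβCD 3. *Col4a5* gave -0.189, -0.169 and -0.073 (HPβCD 4) to 0.333, with -0.011 without vehicle 3. *Col7a1* gave -0.43, -0.325 and -0.187 (HPβCD 4) to 0.448, with -0.183 without vehicle 3. *Col22a1* gave -0.083 without vehicle 1 and 3 and -0.0902 (HPβCD 1) to 0.286, with -0.0033 without vehicle 1. *Col4a4* ran from -0.25 to 0.049 (vehicle 4), with 0.026 without vehicle 1 and 0.002 without HPβCD 4, and *Col4a6* from -0.419 to 0.0057 (vehicle 4). The log2 ratio difference of *Col4a1* to *Col4a2* ran from -0.157 to 0.104 and that of *Col6a1* to *Col6a2* from -0.047 to 0.041 when 1 animal was left out. The causes of these changes were not tested.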

Other observations

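*Col10a1* had 58 counts in HPβCD 1. In the same library the cartilage gene *Chad* had 1087 counts and the bone gene *Ibsp* 74, against at most 144 and 1 in the other 7 libraries. These genes were picked after their values were seen, and other bone and cartilage genes did not share the pattern. *Acan* had 84 counts there, within the 23 to 230 of the other libraries, *Sp7* 22, *Matn3* 1 and *Col2a1* 1, and *Dmp1* was highest in vehicle 3 with 118.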
